A study of Homo sapiens with 20 samples.

Results

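The genes described here encode the proteins by which a cell holds on to the matrix around it: integrin subunits, laminin chains, proteins of the focal adhesion plaque, matricellular and cell-surface proteins, and the proteases, receptors and inhibitors that turn matrix over. The list names 41 genes by these roles, and it was drawn up with earlier results of these data known. A gene counted as measured when a probe carrying its symbol had a detection p-value (the chance of such a signal from the negative control beads of the array) under 0.01 on both arrays of at least 1 group, and the brightest such probe stood for the gene. By this rule 33 of the 41 were measured, among 9592 measured genes in all. The RNA came from SKBr3, a HER2-amplified human breast cancer cell line, and was read on 20 Illumina HT-12 v4 bead arrays in 10 groups of 2. In the growth factor experiment, serum-starved SKBr3 cells received epidermal growth factor (EGF), heregulin (HRG) or vehicle (the starved group). In the resistance experiment, lapatinib-resistant cells (LRSKBr3), maintained in the EGFR and HER2 kinase inhibitor lapatinib, were set against parental cells (pSKBr3), whose sample group names DMSO. All cells of both experiments were transfected with siRNA 60 h before harvest, either a pool against ERRα (siERRα, gene ESRRA) or a control pool (siC), so that no group was free of transfection. The labels give 100 µM growth factor for 24 h, while the methods of the study give a shorter exposure for expression work. The labels also differ among themselves on serum starvation (24 h or 48 h) and on the lapatinib concentration (2 µM in the growth protocol, 1 µM in the sample group). LRSKBr3 is 1 resistant line, derived by long exposure to rising drug doses, so resistance, the drug in the medium and the history of the line cannot be told apart. Nothing in the labels says that the 2 replicates of a group were separate cultures, and p-values then measure only the spread between these arrays, which may be technical.

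Integrins are heterodimers of an α and a β subunit that span the plasma membrane and bind laminins, fibronectin and other matrix proteins on the outside. On the inside, their tails recruit talin, kindlin, vinculin, zyxin and paxillin into focal adhesions, which join them to actin and to kinases such as FAK. Urokinase, its receptor and the matrix metalloproteinases cut matrix at the cell surface, their inhibitors restrain them, and EGF receptor family signalling is known to raise many of these genes through AP-1, SRF and YAP with its partner TEAD.

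Facts of the whole series that bear on these genes are few. Each array detected 12582 to 15177 probes, except EGF siERRα replicate 1, which detected 12151 and correlated with the other arrays at 0.831 to 0.876 where these correlated with each other at 0.933 to 0.990. Between the replicates of that group the member genes differed with an SD of 1.33 on the log2 scale, against 0.303 to 0.529 in the other 9 groups, and 13 members differed by over 1. Results are therefore given with all 20 arrays and with the 19 that remain without it. ESRRA was lower in siERRα than in siC cells, with a mean log2 change of -1.47 ± 0.14 over the 5 settings (SE, limma adjusted p = 0.000527), and -0.99 (HRG) to -2.61 (resistant) within single settings. Of the single settings the resistant one alone passed adjustment (adjusted p = 0.00794, the other 4 between 0.147 and 0.99998), and with 19 arrays the EGF value was -0.82. Of 15 luminal epithelial markers 12 were measured, ERBB2, KRT8, KRT18, KRT19 and EPCAM among them, while CDH1 and ESRP1 were not detected. Of 14 mesenchymal markers only VIM was measured, and of 10 basal markers only ACTA2 and OXTR.

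Among the 8 members that were not measured, LAMA3, the α3 chain of laminin-332, and FLNA, the actin crosslinker filamin A, had no probe in the annotation used. The other 6 had probes that stayed under the detection rule. ITGA6, ITGB3, ITGB8 and FERMT1 (kindlin-1, the kindlin of epithelial cells) were detected on 0 of 20 arrays. FN1, fibronectin, was detected on 1 array and by 1 of its 3 probes. ITGB6, the β subunit of an epithelial integrin that binds latent TGFβ, was detected on 2 arrays, replicate 1 of EGF siC and replicate 1 of HRG siC. Of the 33 measured members 24 were detected on all 20 arrays. The other 9 were detected in part: ITGA2 and LAMB3 on 16 arrays each, PXN on 17, CD44 and PLAU on 15 each, ITGA5 and ITGB4 on 12 each, TFPI2 on 11 and LAMC1 on 5. A gene of the second kind could pass through the group in which it was high, so counts are also given for the 24.

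**Figure D1:**
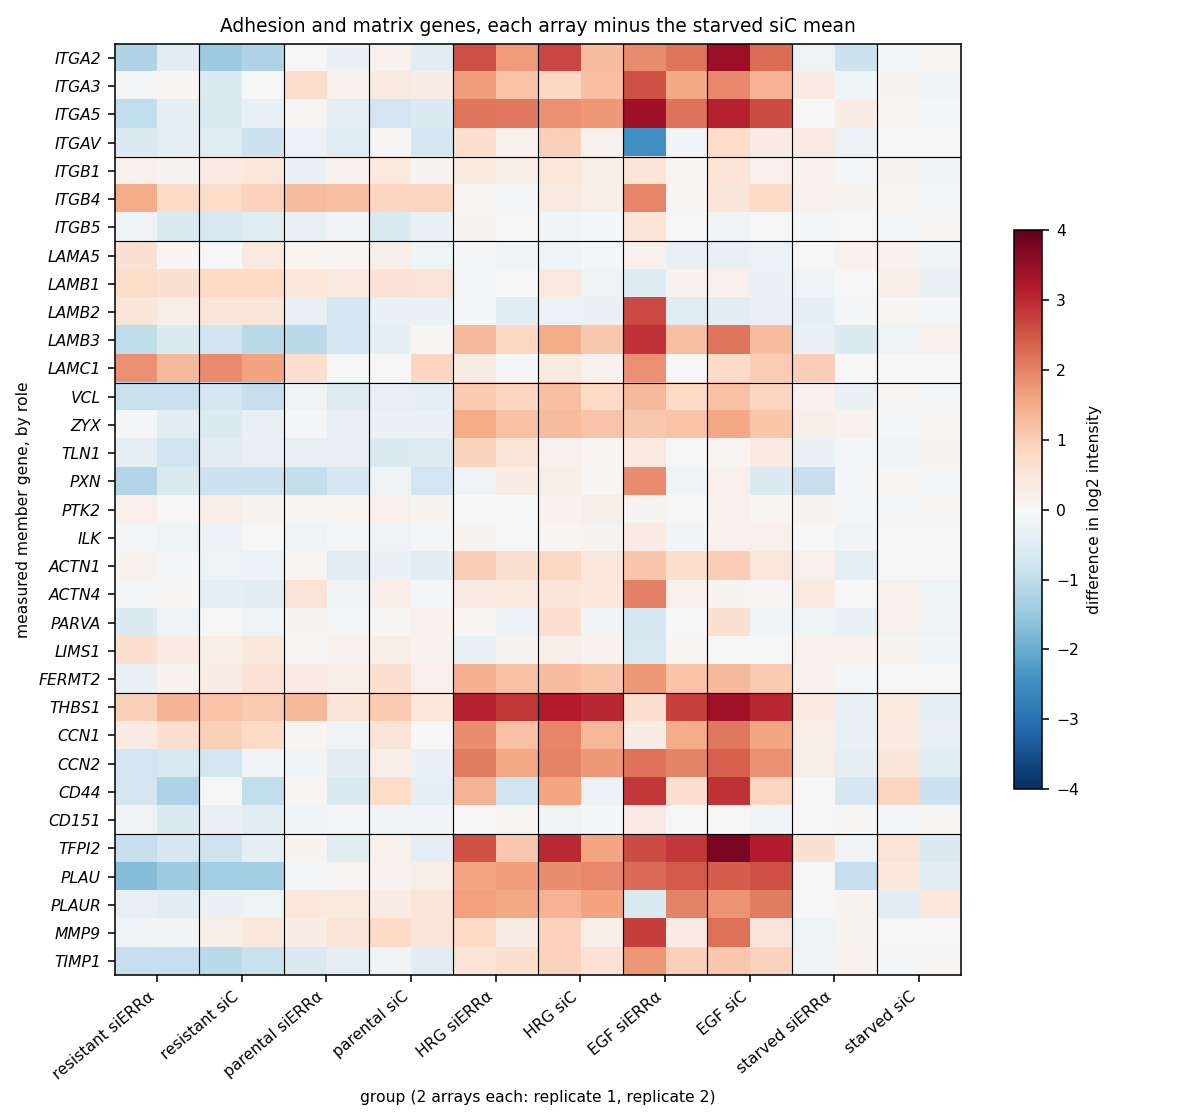
Normalized log2 intensity of the 33 measured members on each of the 20 arrays, minus the mean of the 2 starved siC arrays, with genes grouped by role down the page and 2 columns per group, replicate 1 then replicate 2. Darker red is higher and darker blue lower than starved siC; the EGF and HRG columns are red for the same rows in siC and siERRα cells, and EGF siERRα replicate 1 stands apart from replicate 2 in rows such as ITGAV (6.41 against 8.75) and LAMB2 (10.25 against 7.11).

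Some adhesion and matrix-turnover genes rose with both growth factors, and no member was called lower. The list was drawn up with earlier results of these data known. The shares of all genes set beside its counts therefore describe it and do not test it. The integrin subunits ITGA2 and ITGA5, the plaque genes VCL, ZYX and FERMT2, the matricellular genes THBS1, CCN1 and CCN2, and TFPI2 and PLAU were higher in EGF siC and in HRG siC cells than in starved siC cells, by log2 changes of 0.99 to 3.47. ITGA3, LAMB3 and TIMP1 were also called with EGF. With EGF 13 of 33 members were called higher (limma, Benjamini-Hochberg adjusted p under 0.05), beside 3.47% of all genes, and with the 19 arrays 16 were, beside 6.75%. With HRG 10 of 33 were called higher, beside 1.94% of all genes, and with the 19 arrays 14, beside 4.39%. With 20 arrays 1.78% (EGF) and 0.97% (HRG) of all genes were called lower, and no member. Both EGF arrays lay above both starved arrays in 23 members (23.4% of all genes) and below them in 2 (31.6%), and both HRG arrays above in 25 (22.2%) and below in 2 (29.2%). Of the 24 members detected on all 20 arrays, 8 were called higher with EGF (3.46% of all genes so detected) and 6 with HRG (1.92%). The median log2 change over the members was 0.90 with EGF and 0.58 with HRG, where the medians of all genes were -0.06 and -0.05. Over the 24 members detected throughout, the medians were 0.45 and 0.51. The 2 comparisons share the starved siC arrays, so their agreement is not independent.

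Single arrays moved these counts. With an array left out, the share of all genes called was not counted. A shift common to all genes therefore cannot be told from one of the members. Without EGF siC replicate 1 the EGF count was 5 (ITGA5, THBS1, ZYX, TFPI2 and PLAU), and without starved siC replicate 1 or 2 it was 8 or 7. Without HRG siC replicate 1 the HRG count was 1 (PLAU), and without starved siC replicate 1 or 2 it was 3 or 2. The endothelial markers CDH5 and VWF, the measured 2 of a list of 7 whose PECAM1, KDR, TEK, CLDN5 and EMCN were not detected, summed to a normalized intensity of 664 in EGF siC and 672 in HRG siC cells, against 171 in starved siC cells. The 4 measured leukocyte markers of 9, with PTPRC and CD3E not detected, summed to 1267 and 1292 in EGF siC and HRG siC cells, against 939 in starved siC cells. The part of these markers in the result was not tested. In bulk RNA, more cells of a kind and more RNA per cell cannot be told apart.

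**Figure D2:**
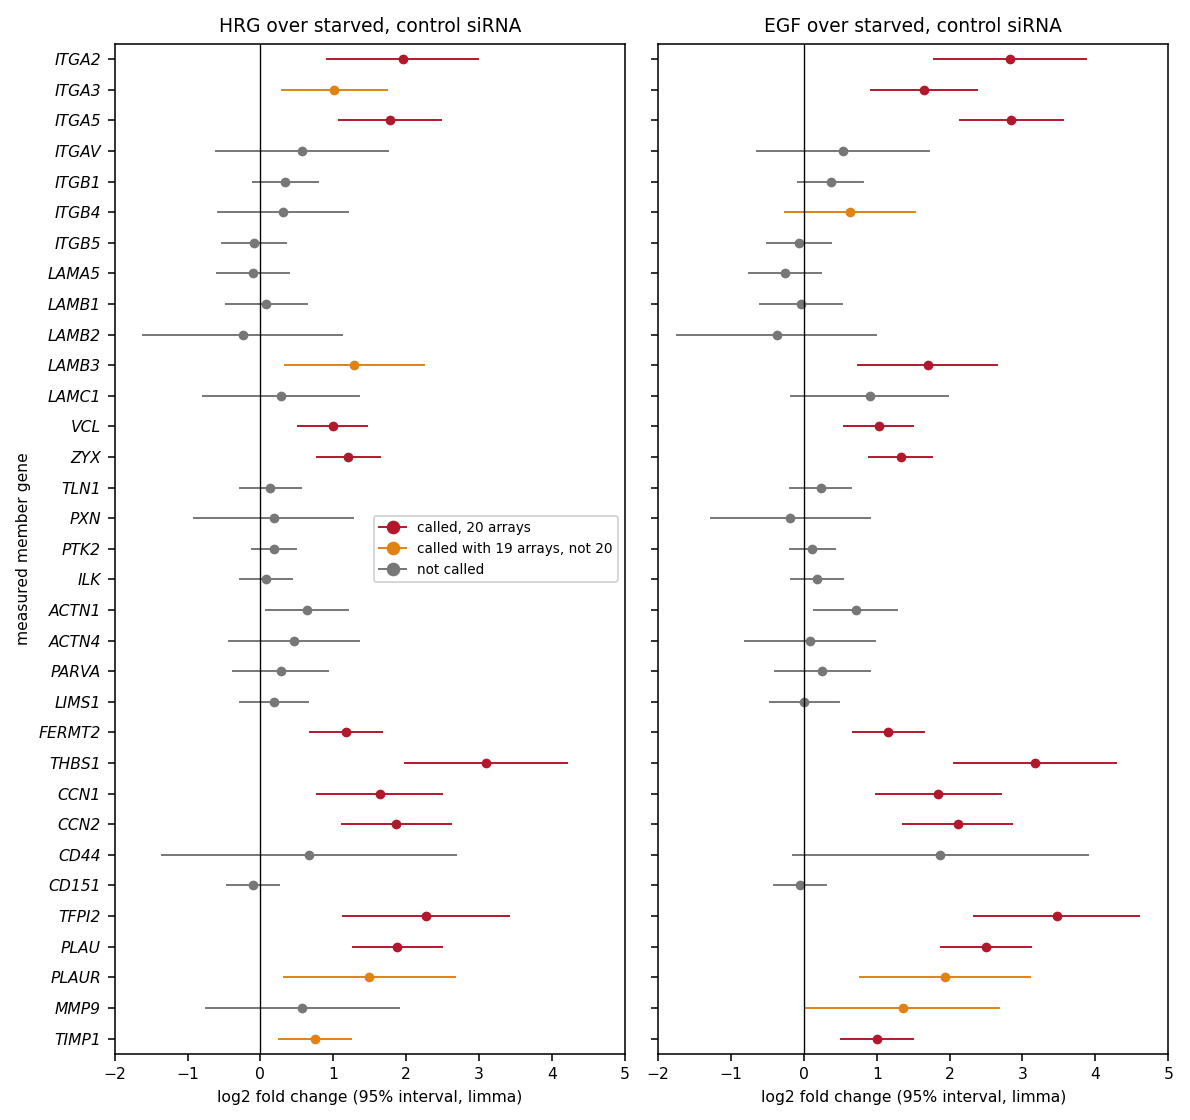
Log2 fold change of each measured member in siC cells, HRG over starved on the left and EGF over starved on the right, with 95% intervals from limma with all 20 arrays; red was called with 20 arrays, orange with 19 and not with 20, grey with neither. With EGF the called members lie between 1.00 (TIMP1) and 3.47 (TFPI2), and ITGB5, TLN1, PTK2, ILK and CD151 lie near 0.

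Promoter sequence is shown for genes picked among those called higher with EGF, with 20 or with 19 arrays, and only where a match was found. Called members without a match are not printed, nor are THBS1 and VCL. AP-1 was searched because EGF and HRG signal to it, and TEAD because CCN2 is a standard YAP and TEAD target. RefSeq promoters (GRCh38.p14, 250 bases before to 50 after the start site) were at hand for 32 of the 41 members. For AP-1 the letters TGANTCA were searched on both strands, with any middle base, which is looser than the consensus TGA(C/G)TCA. They occurred in 7.71% of 35116 promoters and in 6 of 41 promoters of 26 measured members (14.6%). Among 11 members called higher with EGF they stood in 3 of 14 promoters (21.4%). The TEAD letters GGAATG were searched on both strands and had no overlap with the AP-1 matches in the promoters shown. They occurred in 14% of all promoters, in 17.1% of those of measured members and in 4 of the 14 (28.6%). CCN2, the gene for which TEAD was searched, is 1 of these 4, so that share was partly built in. ITGA5 had an AP-1 match that starts 6 bases before the start site, LAMB3 at 67, TFPI2 at 87 and PLAUR at 186. The TFPI2 match reads TGAATCA and so lies outside the consensus, while the others lie within it. CCN2 had 3 TEAD matches, at 169, 104 and 95 bases before the start site. TEAD matches also stood in ITGA5 (82), THBS1 (46) and VCL (171). Measured members that were not called with EGF in siC cells, with 20 or with 19 arrays, held matches too, AP-1 in ACTN4 (248) and LIMS1 (58), and TEAD in ITGB1 (182), ACTN1 (154) and PXN (67). The AP-1 matches of ACTN4 (TGAATCA) and LIMS1 (TGATTCA) also lie outside the consensus. Of 27 promoters of measured members not called with EGF on 20 arrays, PLAUR included, 3 held each motif (11.1%). The CArG box of SRF was found in 1.29% of all promoters and, among measured members, in ACTN1 alone. The ERRα element AAGGTCA was found in 3.92% of all promoters and, among measured members, in ITGAV alone. These matches are letters in a window and not sites of binding. The sequences run 5′ to 3′ through the start base, 251 bases each, with the AP-1 and TEAD matches in capitals.
ITGA5 (chr12:54419266-54419516, minus strand): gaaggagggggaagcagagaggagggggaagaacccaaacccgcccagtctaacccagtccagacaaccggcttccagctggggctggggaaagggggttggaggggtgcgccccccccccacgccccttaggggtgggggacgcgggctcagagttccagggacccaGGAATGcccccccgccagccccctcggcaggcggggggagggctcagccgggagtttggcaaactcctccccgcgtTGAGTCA
LAMB3 (chr1:209651374-209651624, minus strand): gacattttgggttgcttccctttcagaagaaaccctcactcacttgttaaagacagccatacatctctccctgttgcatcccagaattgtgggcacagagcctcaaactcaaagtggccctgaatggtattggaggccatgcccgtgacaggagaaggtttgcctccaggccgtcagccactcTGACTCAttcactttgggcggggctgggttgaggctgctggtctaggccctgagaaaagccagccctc
TFPI2 (chr7:93890753-93891003, minus strand): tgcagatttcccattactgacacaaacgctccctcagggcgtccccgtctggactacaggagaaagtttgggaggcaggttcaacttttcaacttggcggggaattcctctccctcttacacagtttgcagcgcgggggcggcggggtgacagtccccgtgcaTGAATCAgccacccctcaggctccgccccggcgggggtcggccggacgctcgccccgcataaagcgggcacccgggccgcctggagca
PLAUR (chr19:43670169-43670419, minus strand): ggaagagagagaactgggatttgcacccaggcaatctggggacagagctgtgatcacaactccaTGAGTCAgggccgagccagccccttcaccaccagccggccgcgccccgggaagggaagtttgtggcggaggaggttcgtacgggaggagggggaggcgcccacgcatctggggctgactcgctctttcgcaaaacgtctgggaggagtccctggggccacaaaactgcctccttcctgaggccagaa
CCN2 (chr6:131951372-131951622, minus strand): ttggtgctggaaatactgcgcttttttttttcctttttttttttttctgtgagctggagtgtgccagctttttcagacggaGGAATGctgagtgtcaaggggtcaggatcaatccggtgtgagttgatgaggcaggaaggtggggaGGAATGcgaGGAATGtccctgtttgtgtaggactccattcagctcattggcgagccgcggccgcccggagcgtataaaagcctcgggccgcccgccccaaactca

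Of the 4 measured α integrins 3 were called higher with EGF and 2 with HRG. ITGA2, whose product pairs with β1 as a collagen and laminin receptor, measured 9.77 and 8.59 in EGF siC and 9.01 and 7.58 in HRG siC cells, against 6.26 and 6.43 in starved siC cells (normalized log2 intensity). ITGA5, the α subunit of the fibronectin receptor, measured 8.92 and 8.47 in EGF siC and 7.68 and 7.57 in HRG siC, against 5.91 and 5.79 in starved siC, the last not detected. ITGA3, a laminin receptor subunit, measured 8.60 and 8.08 in EGF siC and 7.53 and 7.89 in HRG siC, against 6.81 and 6.57 in starved siC. In all 3 genes every growth factor array was above both starved arrays, and the 4 EGF and HRG values of ITGA2 overlapped each other while those of ITGA5 did not. ITGA5 rose by 2.85 ± 0.33 with EGF (adjusted p = 0.000218) and by 1.78 ± 0.33 with HRG (adjusted p = 0.0106). ITGA2 rose by 2.83 ± 0.48 with EGF (adjusted p = 0.00394) and by 1.95 ± 0.48 with HRG (adjusted p = 0.0465), the HRG call kept in 13 of 30 alternative analyses. ITGA3 rose by 1.65 ± 0.34 with EGF (adjusted p = 0.0112), and its HRG change of 1.02 ± 0.34 was called with the 19 arrays and not with the 20 (adjusted p = 0.146 and 0.039). In all 3 genes the HRG change was the smaller. ITGAV, which pairs with several β subunits, measured 9.60 and 9.18 in EGF siC and 9.81 and 9.03 in HRG siC, against 8.85 on both arrays of starved siC, and was not called. In the authors' own normalized table the EGF changes of these dim genes were smaller, 1.43 for ITGA2, 0.74 for ITGA3 and 1.17 for ITGA5, all still called, and with HRG ITGA2 (0.87) and ITGA5 (0.58) were not called there.

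None of the 3 measured β subunits was called with 20 arrays. ITGB1, the partner of most α subunits, measured 11.69 and 11.37 in EGF siC and 11.60 and 11.40 in HRG siC, against 11.26 and 11.05 in starved siC. Its EGF change was 0.37, with a 95% interval of -0.07 to 0.82, and it was not called with either ligand. ITGB5 measured 12.15 and 12.23 in EGF siC and 12.14 and 12.20 in HRG siC, against 12.20 and 12.32 in starved siC, and its groups overlapped or touched. ITGB4, the hemidesmosome subunit that binds laminin-332 with α6, measured 5.99 and 6.29 in EGF siC, against 5.59 and 5.42 in starved siC, where neither array detected it. That was at least 1.2-fold higher with EGF and was called with the 19 arrays and not with the 20 (adjusted p = 0.495 with 20 arrays, 0.0435 with 19). A bound of this kind sets the mean of the detected group against the lowest signal at which probes were detected, or the gene's own signal where higher. It holds for the processing used here only, and in the authors' table the EGF change of ITGB4 was 0.14 (log2), below the bound.

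Of the 5 measured laminin chains only LAMB3, the β3 chain of laminin-332, was called. LAMB3 measured 8.49 and 7.63 in EGF siC and 7.85 and 7.45 in HRG siC, against 6.16 and 6.57 in starved siC, and both ligands stood above starved cells without overlap. Its EGF change was 1.70 ± 0.44 (adjusted p = 0.0418, and 0.00256 with 19 arrays), a call kept in 8 of 30 alternative analyses. Its HRG change of 1.28 ± 0.44 was called with the 19 arrays and not with the 20 (adjusted p = 0.165 and 0.0193). LAMA5, LAMB1 and LAMB2, chains of laminin-511 and laminin-521, had EGF changes of -0.26, -0.04 and -0.37. None of these chains was called with either ligand. LAMA5 measured 11.82 and 11.88 in EGF siC and 11.94 and 12.06 in HRG siC, against 12.27 and 11.95 in starved siC. LAMC1, the γ1 chain shared by these laminins, was not detected on any EGF siC, HRG siC or starved siC array.

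In the focal adhesion plaque 3 of 11 measured genes were called with each ligand. VCL, vinculin, which ties talin to actin, measured 13.64 and 13.34 in EGF siC and 13.65 and 13.26 in HRG siC, against 12.51 and 12.42 in starved siC. ZYX, zyxin, a LIM protein of tensed adhesions, measured 12.11 and 11.66 in EGF siC and 11.84 and 11.69 in HRG siC, against 10.53 and 10.59 in starved siC. FERMT2, kindlin-2, which activates integrins with talin, measured 11.76 and 11.51 in EGF siC and 11.70 and 11.59 in HRG siC, against 10.50 and 10.45 in starved siC. In these 3 genes all 4 treated arrays lay above both starved arrays, and the EGF and HRG values overlapped. VCL changed by 1.03 ± 0.22 with EGF (adjusted p = 0.0151) and, with HRG, by 0.99 ± 0.22 (adjusted p = 0.029), ZYX by 1.33 ± 0.20 (adjusted p = 0.00157) and 1.21 ± 0.20 (adjusted p = 0.00486). FERMT2 changed by 1.16 ± 0.23 with EGF (adjusted p = 0.00924) and by 1.17 ± 0.23 with HRG (adjusted p = 0.0142). Second probes moved the same way, by 1.50 and 1.54 for VCL and by 1.22 and 1.26 for ZYX with EGF and HRG. The core of the plaque did not pass the test in siC cells: EGF changes were 0.23 for TLN1 (talin), -0.19 for PXN (paxillin), 0.12 for PTK2 (FAK), 0.18 for ILK and 0.01 for its partner LIMS1. ACTN1, α-actinin-1, measured 10.93 and 10.41 in EGF siC and 10.79 and 10.40 in HRG siC, against 9.98 and 9.93 in starved siC, without overlap, and its EGF change of 0.71 was not called (adjusted p = 0.16).

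The matricellular genes rose together. THBS1, thrombospondin-1, measured 11.22 and 10.89 in EGF siC and 11.04 and 10.90 in HRG siC, against 8.28 and 7.48 in starved siC. CCN1 measured 11.26 and 10.76 in EGF siC and 11.12 and 10.49 in HRG siC, against 9.51 and 8.82 in starved siC. CCN2, whose promoter is printed above with its 3 TEAD matches, measured 10.80 and 10.27 in EGF siC and 10.42 and 10.16 in HRG siC, against 8.91 and 7.94 in starved siC. CCN1 and CCN2 encode secreted integrin ligands, and in all 3 genes replicate 1 of the starved cells was above replicate 2, yet below every treated array. THBS1 rose by 3.18 ± 0.52 with EGF (adjusted p = 0.00278) and by 3.10 ± 0.52 with HRG (adjusted p = 0.00539), CCN1 by 1.84 ± 0.40 (adjusted p = 0.0151) and 1.64 ± 0.40 (adjusted p = 0.0426), the HRG call kept in 12 of 31 alternative analyses. CCN2 rose by 2.11 ± 0.35 with EGF (adjusted p = 0.00306) and by 1.86 ± 0.35 with HRG (adjusted p = 0.0112), and its second probe by 1.45 and 1.04. CD151, a tetraspanin that binds laminin-receptor integrins, was not called with either ligand, with 13.71 and 13.61 in EGF siC and 13.57 and 13.64 in HRG siC, against 13.66 and 13.75 in starved siC. CD44, the hyaluronan receptor, measured 9.38 and 7.37 in EGF siC and 8.07 and 6.26 in HRG siC, against 7.35 and 5.65 in starved siC, the last not detected. The HRG and starved values of CD44 overlapped, replicate 1 was above replicate 2 in every group, and its EGF change of 1.87 ± 0.94 was not called (adjusted p = 0.334).

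Of the 5 measured genes of matrix turnover 3 were called higher with EGF and 2 with HRG. TFPI2, a Kunitz-type inhibitor of plasmin and other matrix proteases, measured 9.24 and 8.57 in EGF siC and 8.41 and 7.01 in HRG siC, against 5.98 and 4.90 in starved siC, the last not detected. PLAU, urokinase, measured 9.10 and 9.28 in EGF siC and 8.54 and 8.60 in HRG siC, against 7.11 and 6.27 in starved siC. PLAUR, its receptor, measured 9.44 and 9.74 in EGF siC and 9.04 and 9.26 in HRG siC, against 7.22 and 8.09 in starved siC. In PLAU and PLAUR the order of the groups was the same, with both EGF arrays above both HRG arrays and these above both starved arrays. TFPI2 rose by 3.47 ± 0.53 with EGF (adjusted p = 0.00179) and by 2.27 ± 0.53 with HRG (adjusted p = 0.0343, called in 20 of 30 alternative analyses). PLAU rose by 2.50 ± 0.28 with EGF (adjusted p = 0.000218) and by 1.88 ± 0.28 with HRG (adjusted p = 0.00273). PLAUR changed by 1.94 ± 0.54 and 1.50 ± 0.54, not called with 20 arrays and called with 19 (EGF adjusted p = 0.0585 and 0.00014, HRG 0.193 and 0.00149), and its other 2 probes moved by 1.20 and 2.39 with EGF. In the authors' table, with all 20 arrays, the EGF change of PLAUR was 1.25 and called (adjusted p = 0.0371). Every treated array of the 3 genes was thus above both starved arrays. TIMP1, an inhibitor of metalloproteinases, measured 9.40 and 9.25 in EGF siC and 9.24 and 8.91 in HRG siC, against 8.27 and 8.38 in starved siC. It changed by 1.00 ± 0.23 with EGF (adjusted p = 0.0221) and by 0.75 ± 0.23 with HRG, the second called with the 19 arrays and not with the 20 (adjusted p = 0.118 and 0.0122). MMP9, a gelatinase, measured 9.66 and 8.00 in EGF siC and 8.39 and 7.70 in HRG siC, against 7.48 and 7.47 in starved siC. Replicate 1 of EGF siC stood far above replicate 2, and the EGF change of 1.36 ± 0.62 was called with the 19 arrays and not with the 20 (adjusted p = 0.273 and 0.0428). In the authors' table the EGF changes were 1.39 for TFPI2 and 1.30 for PLAU, both called, and the HRG change of TFPI2 (0.73) was not.

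**Figure D3:**
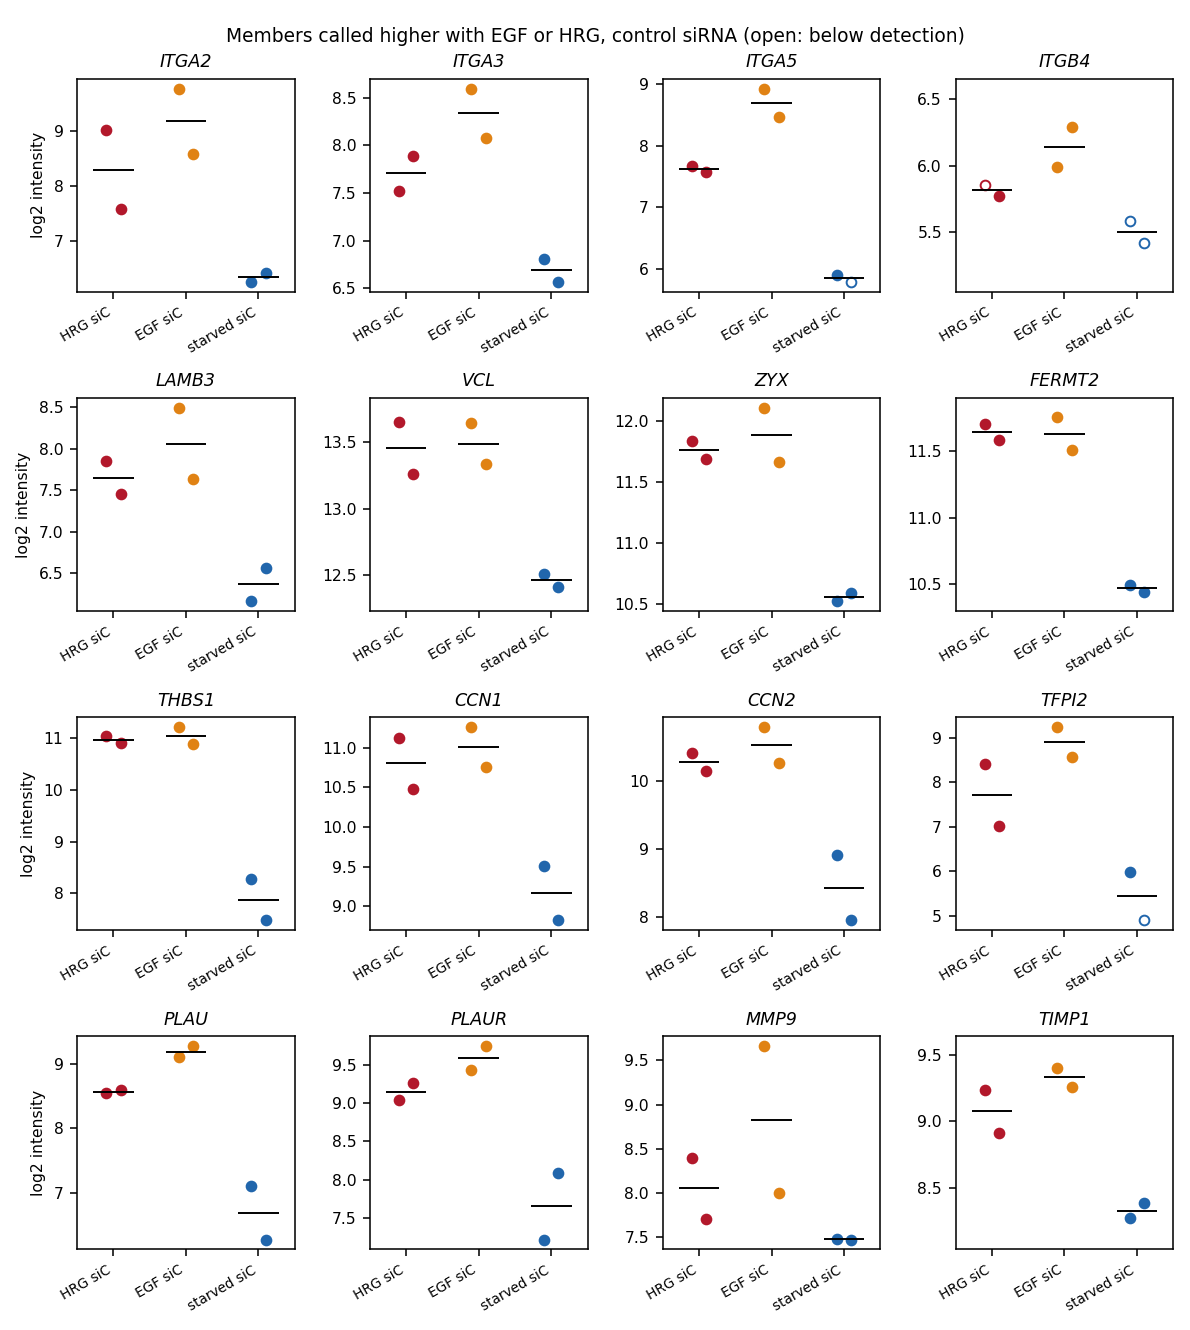
Normalized log2 intensity of the 16 members called higher with EGF or HRG, with 20 or 19 arrays, in HRG siC, EGF siC and starved siC cells, 1 point per array, a line at the mean and open points below detection; each panel has its own vertical axis, which does not start at 0. Every EGF array lies above both starved arrays in each panel, as with THBS1 (11.22 and 10.89 in EGF siC against 8.28 and 7.48 in starved siC).

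Against each other, the ligands could not be told apart by the test. HRG over EGF called 0 of 33 members in siC cells with limma, with 20 and with 19 arrays, where 0.0% of all genes were called (0.073% with 19 arrays). At an unadjusted p under 0.05 there were 3 members, beside 2.91% of all genes (20 arrays), and the methods' t-test also gave 3. By sign 23 of 33 members were lower with HRG, as were 12 of the 13 called with EGF. The 13 were called for high values on the EGF arrays, which this comparison uses again, so their lean was partly built in. With no member called, these signs establish no direction. Among the 13, ITGA5 had a log2 difference, HRG minus EGF, of -1.07 ± 0.33 (95% interval -1.78 to -0.37). TFPI2 had -1.19 (-2.33 to -0.06) and PLAU -0.62 (-1.23 to -0.01). The intervals are not adjusted for the number of genes, and the smallest limma adjusted p of any member was 0.99996 with 20 arrays. For the cytoskeletal genes and THBS1 the differences were near 0: FERMT2 0.01 (-0.48 to 0.50), VCL -0.04 (-0.51 to 0.44), ZYX -0.12 (-0.55 to 0.31) and THBS1 -0.08 (-1.19 to 1.03). These intervals still allow differences of about 0.5 for the first 3 and of 1 for THBS1.

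In siERRα cells the growth factors again raised some adhesion and matrix-turnover genes of this list. With EGF 12 of 33 members were called higher, beside 6.7% of all genes, and 13 with the 19 arrays, beside 3.33%. With array weights, or with a fit on only the arrays compared, the EGF count was 0, and the share of all genes called in these fits was not counted. With HRG 9 were called higher, beside 1.74%, and 14 with the 19 arrays, beside 4.76%, and no member was called lower with either ligand (4.87% of all genes with EGF and 0.907% with HRG, 20 arrays). ITGA5 measured 9.24 and 8.04 in EGF siERRα and 7.99 and 7.97 in HRG siERRα, against 5.86 and 6.14 in starved siERRα. ITGA2 measured 8.22 and 8.48 in EGF siERRα and 8.93 and 8.04 in HRG siERRα, against 6.15 and 5.48 in starved siERRα, the last not detected. Both genes kept a clear gap between treated and starved arrays, with changes of 2.64 and 1.98 for ITGA5 and 2.54 and 2.67 for ITGA2 with EGF and HRG, all called. THBS1 measured 8.55 and 10.60 in EGF siERRα and 10.94 and 10.74 in HRG siERRα, against 8.25 and 7.55 in starved siERRα. CCN2 measured 10.58 and 10.42 in EGF siERRα and 10.52 and 9.96 in HRG siERRα, against 8.68 and 8.05 in starved siERRα. PLAU measured 8.95 and 9.13 in EGF siERRα and 8.26 and 8.37 in HRG siERRα, against 6.70 and 5.78 in starved siERRα, the last not detected. The low THBS1 value is that of the array that stood apart, and the THBS1 change with EGF was 1.68 with 20 arrays (adjusted p = 0.0515) and 2.69 with 19 (adjusted p = 0.00201). PLAUR went the same way, with 7.09 and 9.63 in EGF siERRα against 7.63 and 7.77 in starved siERRα, and a change of 0.66 with 20 arrays (adjusted p = 0.402) and 1.92 with 19 (adjusted p = 0.00127). CCN1 followed, at 0.91 with 20 arrays and 1.50 with 19 (adjusted p = 0.0449).

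With HRG, CCN1 and PLAUR changed by 1.55 and 1.54 in siERRα cells. Both were called with the 19 arrays and not with the 20 (limma adjusted p = 0.0593 and 0.174 with 20). The remaining genes called in siERRα cells were those of the plaque, LAMB3, ITGA3 and the protease inhibitors. VCL measured 13.77 and 13.27 in EGF siERRα and 13.51 and 13.33 in HRG siERRα, against 12.63 and 12.20 in starved siERRα. ZYX measured 11.65 and 11.70 in EGF siERRα and 12.04 and 11.72 in HRG siERRα, against 10.83 and 10.74 in starved siERRα. FERMT2 measured 12.20 and 11.63 in EGF siERRα and 11.88 and 11.63 in HRG siERRα, against 10.61 and 10.40 in starved siERRα. The 3 plaque genes were called with both ligands with 20 arrays, and VCL lost its EGF call with 19 (0.86, adjusted p = 0.053). ACTN1 measured 11.06 and 10.66 in EGF siERRα and 10.94 and 10.56 in HRG siERRα, against 10.17 and 9.57 in starved siERRα. Its EGF change was 0.99 (adjusted p = 0.0324, lost with 19 arrays at 0.164) and its HRG change 0.88 (called with 19 arrays and not with 20, adjusted p = 0.0453). TLN1, talin, the link between the integrin tail and actin, measured 8.44 and 8.07 in HRG siERRα, against 7.28 and 7.52 in starved siERRα, a rise of 0.86 ± 0.20 (adjusted p = 0.0337). In siC cells TLN1 had 7.74 and 7.64 with HRG, against 7.43 and 7.67 starved. The difference of the 2 TLN1 responses was 0.72 and did not pass adjustment over all genes (adjusted p = 0.9996 with 20 arrays and 0.799 with 19).

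LAMB3 measured 9.27 and 7.57 in EGF siERRα and 7.67 and 7.18 in HRG siERRα, against 6.05 and 5.82 in starved siERRα, the last not detected. ITGA3 measured 9.24 and 8.24 in EGF siERRα and 8.37 and 7.84 in HRG siERRα, against 7.01 and 6.53 in starved siERRα. Both were called with EGF (2.48 and 1.97), and with HRG on the 19 arrays and not on the 20 (1.49 and 1.33). TFPI2 measured 8.06 and 8.27 in EGF siERRα and 7.97 and 6.53 in HRG siERRα, against 6.04 and 5.29 in starved siERRα, the last not detected. TIMP1 measured 10.09 and 9.27 in EGF siERRα and 8.84 and 8.96 in HRG siERRα, against 8.23 and 8.48 in starved siERRα. Both inhibitors were called with EGF only, at 2.50 and 1.33. Counts in siERRα cells also moved with single arrays: the EGF count was 7 without starved siERRα replicate 2 and 22 without EGF siERRα replicate 2, and the HRG count was 1 without HRG siERRα replicate 1 and 4 or 2 without starved siERRα replicate 1 or 2. The shares of all genes called with those arrays left out were not counted. Across the 33 members the HRG changes of siERRα and siC cells, which come from separate arrays, had a Pearson r of 0.94 and a Spearman rho of 0.90. These changes had the same sign in 27 members, calls in both in 8 and a median difference in size of 0.17. With EGF and the 19 arrays r was 0.92, rho 0.85 and the same sign was found in 23. These are descriptions across genes of 1 line that share probes and the scaling.

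**Figure D4:**
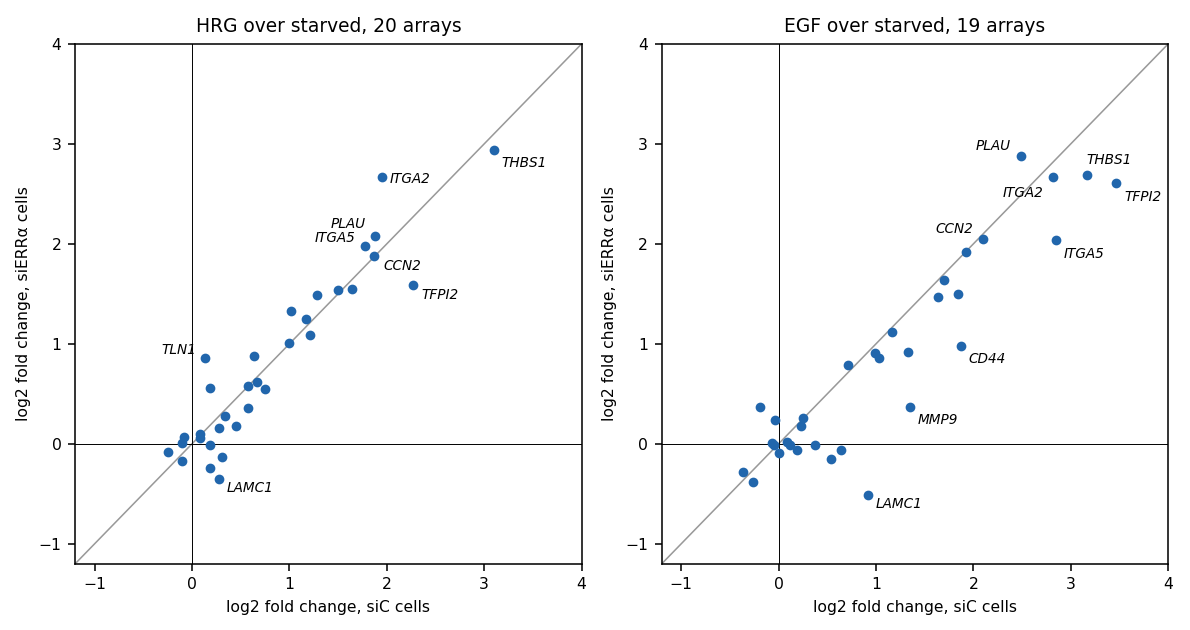
Log2 fold change over starved cells in siERRα cells (vertical) against siC cells (horizontal) for the 33 members, HRG with 20 arrays on the left and EGF with 19 arrays on the right, with the line of equal change. Points run along the line, from near 0 to THBS1 (2.94 in siERRα and 3.10 in siC cells with HRG), and TLN1 lies above it with HRG (0.86 and 0.14).

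Set directly against siC, siERRα changed no member by the test. Averaged over the 5 settings, limma called 0 of 33 with 20 and with 19 arrays (0.0104% and 0.0209% of all genes were called). With 20 arrays 1 member had an unadjusted p under 0.05, beside 8.63% of all genes. Within single settings 0 members were called, with 0.0% to 0.073% of all genes (starved 0.0104%, resistant 0.0104% with 20 and 0.0521% with 19 arrays). With 20 arrays an unadjusted p under 0.05 was found in 0 (starved), 6 (EGF), 1 (HRG), 0 (parental) and 1 (resistant) of the 33 members. The shares of all genes at that threshold were 2.03%, 24%, 2.69%, 2.3% and 3%, in the same order. The methods' t-test gave 6 members in all, and its share of all genes was not counted. The mean changes ran from -0.36 (CD44) to 0.32 (ACTN4), with a median 95% half-width of 0.31, so that for 32 of 33 members the interval lay within 1 log2 unit of 0 on either side, CD44 being the exception. Within single settings the median half-width was 0.70, and 17 to 19 of the 33 intervals lay within that range, 21 to 30 with the 19 arrays. These intervals do not show that siERRα left the genes as they were, and ESRRA itself was called in the resistant setting alone. The widest single values came with EGF, -1.81 for ITGAV and 1.44 for LAMB2, and rest on the array that stood apart: ITGAV measured 6.41 and 8.75 in EGF siERRα, against 9.60 and 9.18 in EGF siC, and LAMB2 measured 10.25 and 7.11, against 7.18 and 7.29. The 3 tests of whether the siERRα effect differed with EGF, with HRG or with resistance called 0 members and 0.0% of all genes. At an unadjusted p under 0.05 there were 2, 1 and 0 members, beside 9.97%, 2.21% and 1.53% of all genes. In results with no calls the direction of a member is not established.

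Between resistant and parental cells the members were called about as often as genes at large. The urokinase gene was lower in resistant cells, and no integrin or plaque gene was called. PLAU measured 5.31 and 5.31 in resistant siC, with detection on neither array, against 6.86 and 6.91 in parental siC. In siERRα cells it measured 4.94 and 5.28 in resistant, again undetected, against 6.65 and 6.75 in parental cells. By the processing used here PLAU was at least 2.4-fold lower in resistant siC cells (adjusted p = 0.00638) and at least 2.11-fold lower in resistant siERRα cells (adjusted p = 0.00516). It was the only member called with 20 arrays in either comparison, 1 of 33, which is no more than the 4.5% and 5.03% of all genes called. The siC call was lost without any 1 of its 4 arrays (adjusted p up to 0.0614), and the siERRα call without parental siERRα replicate 2 or resistant siERRα replicate 1 (up to 0.0601). In the authors' table the log2 changes of PLAU were -0.39 (adjusted p = 0.0374) and -0.34 (adjusted p = 0.0601), smaller than the bounds above.

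With the 19 arrays 4 of 33 members were called in each comparison, 2 higher and 2 lower. That count is near the 10.2% (siC) and 11.1% (siERRα) of all genes called. PLAUR measured 7.33 and 7.20 in resistant siERRα, against 8.07 and 8.05 in parental siERRα, and was called there (-0.80, adjusted p = 0.55 with 20 arrays and 0.037 with 19). In siC cells it measured 7.38 and 7.46 in resistant, against 7.94 and 8.14 in parental cells, without a call. TIMP1 measured 7.25 and 7.42 in resistant siC, against 8.18 and 7.91 in parental siC, and was called there (-0.71, adjusted p = 0.116 and 0.0122). In siERRα cells TIMP1 measured 7.40 on both resistant arrays, against 7.74 and 7.94 in parental cells. In each of these comparisons both resistant arrays were below both parental ones. Of the 5 laminin chains LAMB2 and LAMC1 were called higher with the 19 arrays, while LAMA5 (0.16 in siC), LAMB1 (0.23) and LAMB3 (-0.78) were not called. LAMB2 measured 8.08 on both arrays of resistant siC, against 7.36 and 7.35 in parental siC, and 8.09 and 7.88 in resistant siERRα, against 7.29 and 6.93 in parental siERRα. LAMC1 measured 6.56 and 6.30 in resistant siC, against 4.67 and 5.55 in parental siC, and 6.49 and 5.97 in resistant siERRα, against 5.34 and 4.71 in parental siERRα. LAMC1 was detected on all 4 resistant arrays and on none of the 4 parental ones. By the processing used here it was at least 1.67-fold (siC) and 1.62-fold (siERRα) higher. In the authors' table, with all 20 arrays, its log2 changes were only 0.24 and 0.21, and those of LAMB2 0.36 and 0.40. None of these was called there. The LAMB2 changes were 0.72 (adjusted p = 0.684 with 20 arrays and 0.0176 with 19) and 0.88 (0.583 and 0.00548), and those of LAMC1 had adjusted p of 0.187 and 0.0275 in siC and 0.231 and 0.04 in siERRα cells. Of the members called with growth factors, THBS1, CCN1, CCN2, VCL and ZYX were not called between resistant and parental cells, and the VCL values were -0.44 (siC) and -0.56 (siERRα). The median member change was -0.15 in siC and -0.18 in siERRα cells, where all genes had medians of 0.02 and 0.00. The measured basal markers ACTA2 and OXTR summed to 156 in resistant siC, against 385 in parental siC cells, the leukocyte markers to 582, against 1018, and the endothelial markers CDH5 and VWF to 284, against 129. The part of these markers in the values was not tested.

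**Figure D5:**
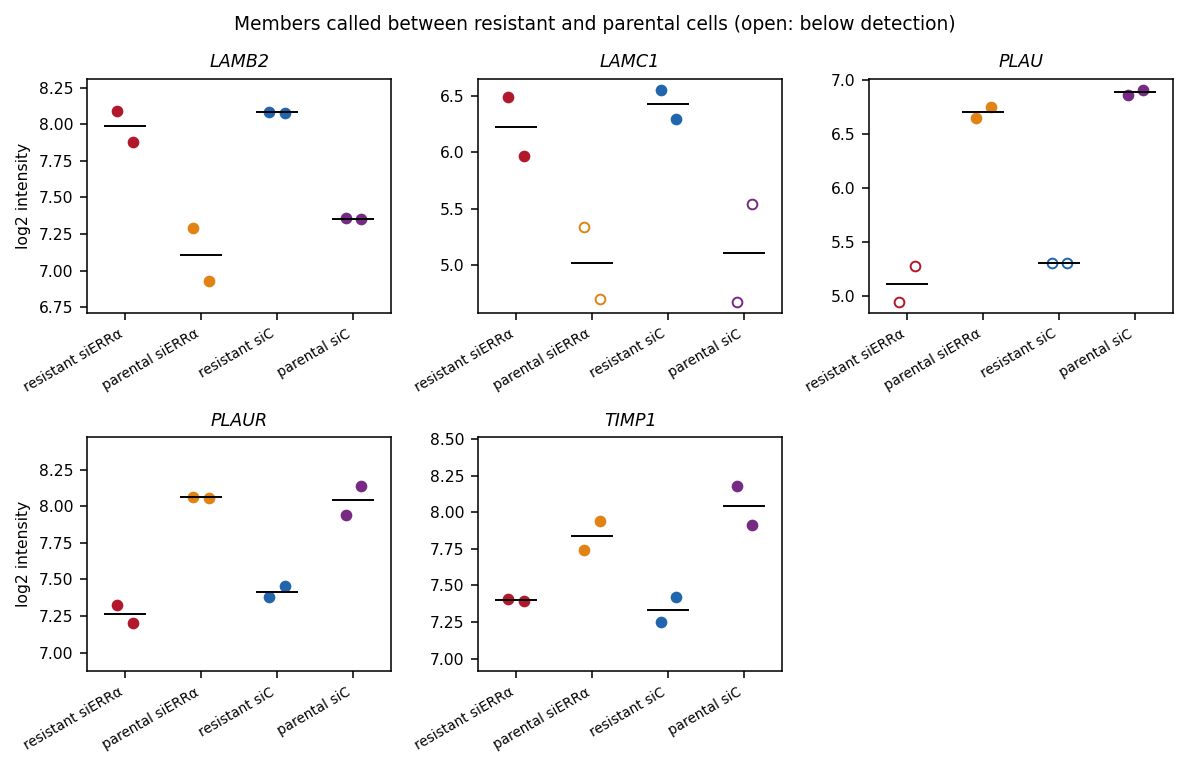
Normalized log2 intensity of the 5 members called between resistant and parental cells, with 20 or 19 arrays, in resistant siERRα, parental siERRα, resistant siC and parental siC cells, 1 point per array, a line at the mean and open points below detection; vertical axes differ and do not start at 0. PLAU is below detection on all 4 resistant arrays (4.94 to 5.31) and above it on the parental ones (6.65 to 6.91), and LAMC1 shows the reverse.

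Parental cells in serum and starved cells, both siC, come from the 2 experiments, so serum, DMSO and experiment cannot be told apart. With 20 arrays limma called 0 of 33 members (0.73% of all genes), with 2 at an unadjusted p under 0.05 (8.92% of all genes) and 5 by the methods' t-test. With the 19 arrays ITGB4 alone was called, beside 2.15% of all genes. ITGB4 measured 6.37 and 6.36 in parental siC, against 5.59 and 5.42 in starved siC, where it was not detected, and was at least 1.4-fold higher (adjusted p = 0.582 with 20 arrays and 0.0306 with 19). ITGB4 was thus detected on every parental and resistant array, and in the growth factor experiment on 4 of 12.

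Other genes of the same pathways, from lists of further integrins, laminins, adhesion plaque, matrix, protease and actin genes, were counted beside the members. Of 162 such genes 87 were measured, and in siC cells 12 were called higher and 1 lower with EGF (3.47% and 1.78% of all genes), 8 higher and 0 lower with HRG (1.94% and 0.97%). SRF, the transcription factor of actin and adhesion genes, rose by 1.57 with EGF and 1.48 with HRG, the tetraspanin TSPAN14 by 1.65 and 1.78, the calponin CNN3 by 0.97 and 0.85 and the protease inhibitor SERPINB8 by 2.18 and 1.88. MMP10, stromelysin-2, rose by 2.46 and SERPINE2, a serpin that inhibits urokinase, by 1.61 with EGF. VASP, an actin regulator that zyxin recruits, rose by 1.45 with HRG, and CNN2 by 0.73. With EGF CNN2 was called too (0.62, limma adjusted p = 0.0326), and VASP changed by 1.05 without a call (adjusted p = 0.0692). Between resistant and parental siC cells 1 was called higher, the matrix gene FBLN1 (1.66), and 3 lower, CNN2 (-1.37), RSU1 (-1.33), a partner of the ILK complex, and PDLIM7 (-0.87), a count near the 4.5% of all genes called in that comparison.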

How the data were processed

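Expression was measured on 20 Illumina HT-12 v4 bead arrays, 10 groups of 2 named from the labels. The deposited table of scanner output holds an intensity and a detection p-value for each of 47323 probes, which the authors had not normalized. A second deposited table holds log2 values that the authors normalized with lumi in FlexArray, and it served as an alternative. The methods name SAM and Student's tests for their calls.

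Intensities were corrected with normexp on the detection p-values (limma 3.58.1 in R 4.3.3, offset 16), quantile-normalized and taken to log2. The offset shrinks changes of dim genes, and with 2 arrays a group their number limits precision. The annotation gave 30113 probes 1 symbol, 8 several and 17202 none. Probes detected at p under 0.01 on both arrays of a group (15444, of which 12414 had 1 symbol) gave 9592 genes by the brightest probe. One limma fit of 10 group means had 10 residual degrees of freedom (9 with 19 arrays), with Benjamini-Hochberg adjustment over all genes of each comparison, and 17 comparisons were made. An adjusted p under 0.05 made a call. All tests were two-sided, and errors are SE. The script was tested on simulated data. For a gene undetected on both arrays of 1 group, the "at least" fold sets the brighter group's mean against, per array, whichever is higher, the gene's own signal or the lowest among detected probes. The bound holds for this processing only, and changes in the authors' table fell below it for ITGB4, LAMC1 and PLAU.

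The 41 members, the other gene lists, the promoter motifs and the tests were chosen with earlier results of these data known. A member called in a comparison was described by its values on the arrays of that comparison, with few exceptions. CCN1 in siERRα cells and PLAUR in HRG siERRα cells were given by their changes only. Other members were described by examples and ranges. Of the other pathway genes those with the 6 smallest adjusted p-values could be named. The second probes, the CD44 replicate order and genes cited as uncalled were chosen after their values were seen. No 2 arrays held identical values. The deviations of same-numbered replicates correlated at -0.08 to 0.31 over 45 pairs of groups (median 0.09), above 0.1 in 21. In every group the array code of replicate 1 is a number and that of replicate 2 is in letters. What this marks is not given. The main fit did not take the numbers as pairs, and counts with a replicate block are given below. Alternatives were 19 arrays, array weights, cyclic loess, median scaling, an offset of 50, no or a stricter detection filter, the mean of a gene's probes, the authors' table, fits on only the arrays compared, the methods' t-test, a replicate block and leaving out each array. Figures were drawn in Python.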

Additional observations from a re-analysis of the deposited data

How the results depend on the processing

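With each array left out in turn, the members called ranged from 5 to 16 with EGF and 1 to 14 with HRG in siC cells, from 7 to 22 and 1 to 14 in siERRα cells, from 0 to 4 in each resistant over parental comparison, 0 to 1 for parental over starved and 0 to 0 for HRG over EGF. The siERRα mean, the single siERRα settings and the differences of response ranged from 0 to 9, 0 to 15 and 0 to 11, the high ends all without EGF siERRα replicate 2, which leaves that group to the array that stood apart. The same omission turned PLAUR with EGF in siERRα cells to -0.62, and without EGF siERRα replicate 1 it was 1.93. With 19 arrays, HRG siERRα had 14 calls, both resistant comparisons 4 and parental over starved 1. Array weights gave 14, 4 (siC), 3 (siERRα) and 1 for these, and 0 for EGF siERRα. Fits on only the arrays compared gave 2 (HRG siC), 0 (EGF siERRα), 3 (HRG siERRα), 5 (resistant siC) and 4 (resistant siERRα). Genes detected on all arrays gave 6 with HRG siC and 0 for both resistant comparisons, with fewer genes tested. The authors' table gave 0 for resistant siERRα. The methods' t-test gave, unadjusted, 3 for HRG over EGF, 6 for EGF siERRα, 5 and 3 for resistant siC and siERRα, 5 for parental over starved and 6 over the single siERRα settings, and after Benjamini-Hochberg 0 for EGF siC, HRG siC, EGF siERRα, HRG siERRα and resistant siERRα. Beyond these constructions the cause was not tested. Apart from the 19 arrays, the shares of all genes called were not counted for the alternatives of this section. A shift common to all genes therefore cannot be told from one of the members. A replicate block gave 16 (EGF siC), 10 (HRG siC), 13 (EGF siERRα) and 12 (HRG siERRα) calls, and left the other counts as they were. The 3 added with EGF siC were ACTN1 (adjusted p = 0.0283), CD44 (0.0211) and PLAUR (0.0402). Median scaling moved the median of all genes by over 0.1 for EGF and HRG in siERRα cells (to -0.15 each), for parental over starved (0.30), for siERRα over siC with HRG (-0.10) and for the HRG minus starved (-0.13) and EGF minus starved (-0.07) differences. In the authors' table the EGF changes of ITGB4 (0.14), LAMB3 (0.69, not called), MMP9 (0.83), PLAUR (1.25) and the dim genes named above were over 1.5 times smaller.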

Other observations

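CD44 was higher on the array of replicate 1 than on that of replicate 2 in 10 of 10 groups, with differences of 0.49 to 2.19 and a median of 1.42 on the log2 scale. VCL (median 0.27) and ACTN1 (0.38) showed the same order in 10 of 10 groups, beside 1.01% of all genes with replicate 1 always higher and 0.636% with replicate 2 always higher. With the replicate number as a block, the EGF change of CD44 in siC cells (1.87) had an adjusted p of 0.0211 in limma, where the fit without the block gave 0.334. Its HRG change of 0.67 had an adjusted p of 0.515 with the block. The labels do not say what the replicate number marks, and the pattern was noticed after the values were seen.

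ITGB1 was read by a second probe, which moved by 0.33 with EGF and 0.28 with HRG in siC cells, where the probe described above moved by 0.37 and 0.34. Between resistant and parental siC cells the second VCL probe changed by -0.90, where the brighter probe had -0.44, and the 2 further PLAUR probes by -0.65 and -0.42, where the brightest had -0.62. No test was run on these second probes alone.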
